A study of Mus musculus with 8 samples.

Results

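Endothelin ligands, receptors and their converting enzyme were followed in mouse retina. The rule named 6 genes, the ligands Edn1, Edn2 and Edn3, the receptors Ednra and Ednrb and the converting enzyme Ece1, and took every probe set (the group of short probes that an Affymetrix array uses to read a transcript) whose only gene symbol in the platform annotation was one of these. It found 12 probe sets for 5 of the 6 genes, among 45037 probe sets that are not array controls, of which 34945 have a single symbol and cover 18193 genes. Ednra had no such probe set and was not analysed here. Of the 12 probe sets, 7 passed the filter on low signal, a mean log2 value over all arrays at or above 8.5 (about 345 intensity units), and were tested among 27022 probe sets. The 7 covered all 5 genes, because Edn1 and Edn2 had 1 probe set each, Ednrb had 3, and Edn3 and Ece1 had 1 tested probe set each out of 4 and 3.

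Endothelins are short vasoactive peptides. Each is cut from a larger precursor in steps, of which the last, from big endothelin to the mature peptide, is carried out by endothelin-converting enzymes at membranes. The mature peptides act through G protein-coupled receptors, the A receptor, which prefers endothelins 1 and 2, and the B receptor, which binds all 3 peptides alike. In the vessel wall endothelin 1 made by endothelium constricts smooth muscle through the A receptor, and endothelin 3 with the B receptor is needed for the neural crest cells that become melanocytes and enteric neurons. In the retina the B receptor is found on astrocytes and Müller cells, and stressed photoreceptors are known to make endothelin 2, which signals to these glia.

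Total RNA had been measured on 8 Affymetrix arrays, with a single retina sample on each. Controls (n = 4) were retinas taken by fresh dissection, and their labels put them at 0 d. Injected retinas (n = 4) carry labels of injection and of a compound-based treatment, and no compound, dose, route or interval is named. The labels name no strain, genotype or age, and no sham-injected group was compared, so injection, compound and handling cannot be told apart. They do not state whether each sample is a different animal. The p-values set each group difference against the spread of these samples within groups, and that spread may be technical.

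Most listed markers of retina passed the filter on mean signal over all arrays, which is not a call of detection on each array. Tested were 7 of 10 listed rod genes, 9 of 10 cone genes, 10 of 10 Müller glia genes and 9 of 12 genes of other retinal neurons. Signal of neighbouring tissue differed between arrays. The summed intensity of 9 pigment cell genes was 219040 in control replicate 2 against 10606 to 56207 on the other arrays, and that of 8 cornea and fibroblast genes was 31908 there against 4153 to 6670. The sum of 4 lens genes ran from 766 in control replicate 2 to 67520 in injected replicate 2, with a list median of 2.77 (injected minus control, log2). The 7 pigment epithelium genes had a median of -0.88, and their retinoid isomerase gene Rpe65 was at -3.02 ± 0.73 (SE; limma adjusted p = 0.513). Rpe65 was the 1 of 7 whose groups did not overlap, beside 5.5% of all genes tested. Its injected mean of 8.04 was below the filter floor of 8.5, so it passed only through the controls, which were highest in replicate 2 (12.53). A single gene carried much of some marker sums. Ttr made up 86% of the pigment epithelium sum, Cryba1 65.5% of the lens sum and Csf1r 51.9% of the microglia and leukocyte sum. In the other marker lists the leading gene made up 25.7% to 46.6%. Injected replicate 3 had the lowest weight in limma's estimate of array quality (0.191, against 0.646 to 1.83 for the others). Of 8 arrays, the 4 injected had the higher ratio of 3' to 5' signal of the GAPDH control probe sets, a measure of RNA integrity and labelling, at 5.26 to 8.82 against 3.36 to 4.68 in controls (p = 0.0286 by a two-sided exact permutation test, which can give no smaller p with 4 arrays a group). The same ratio for beta-actin ran from 39.2 to 57.2 in controls and from 43.3 to 59.7 in injected samples (p = 0.486 by the same exact permutation test).

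The ligand Edn2 was the member whose groups stood apart, with signal 1.68-fold higher in injected retina. Values below are log2(quantile-normalised intensity + 16) unless stated. Edn2 read 12.08, 11.58, 11.77 and 11.74 in control replicates 1 to 4 and 12.86, 12.55, 12.50 and 12.27 in injected replicates 1 to 4. Every injected array lay above every control, and the closest pair was injected replicate 4 and control replicate 1. On the deposited linear scale the order was the same, with controls from 3053 to 4392 intensity units and injected samples from 4939 to 7580. The means were 11.79 ± 0.21 and 12.54 ± 0.24 (SD, n = 4 each), a difference of 0.75 ± 0.20 (SE; 95% confidence interval 0.31 to 1.20). By limma with Benjamini-Hochberg adjustment over all 27022 probe sets the difference did not pass (unadjusted p = 0.00393, adjusted p = 0.532). Edn2 stood at place 198 of 27022 by p. In whole tissue a change in the number of cells that make a transcript and a change in RNA per cell cannot be told apart.

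The scaling of the arrays matters for the separation of Edn2. With arrays centred on their medians the difference was 0.53 and the groups overlapped (highest control 12.16, lowest injected 12.01), while the median of all probe sets tested was then -0.15. Relative to that median the difference was 0.68, against 0.77 with quantile normalisation. The deposited scaling gives the same 0.68 by construction, since centring only shifts each array by a constant. Leaving out any 1 array kept the difference between 0.65 and 0.85. The GAPDH ratio given above was higher on the same 4 arrays, and over the 8 arrays its log2 value and Edn2 had Pearson's r = 0.70 and Spearman's rho = 0.62. Within groups, as deviations from group means, r was -0.26, and without injected replicate 3 and control replicate 3 it was 0.67. The part of the ratio in the Edn2 difference was not tested.

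The stretch of 250 bases before the annotated start of Edn2 is shown because Edn2 was the member with separate groups, at chr4:120160956-120161205 (GRCm38.p6, plus strand, from the RefSeq promoter table, which held all 6 members).
Edn2: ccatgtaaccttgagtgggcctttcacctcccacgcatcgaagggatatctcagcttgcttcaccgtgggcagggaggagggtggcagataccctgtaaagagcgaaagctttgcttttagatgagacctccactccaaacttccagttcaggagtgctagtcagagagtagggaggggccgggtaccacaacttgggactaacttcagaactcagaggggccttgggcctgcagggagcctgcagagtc
It was searched on both strands for 5 motifs and held none of them, so no base is in capitals. The AP-1 letters TGANTCA are in 6.75% of 32851 promoter windows of this length. The STAT letters TTCNNNGAA are in 7.02% of the windows. The GATA factor letters AGATAA are in 9.99% of the windows. The hypoxia response letters ACGTG are in 16.6% of the windows. The letters TATAAA of the box that binds the TATA-binding protein are in 12.4% of the windows. The absence of a match says only that these letters are not in this window.

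**Figure D1:**
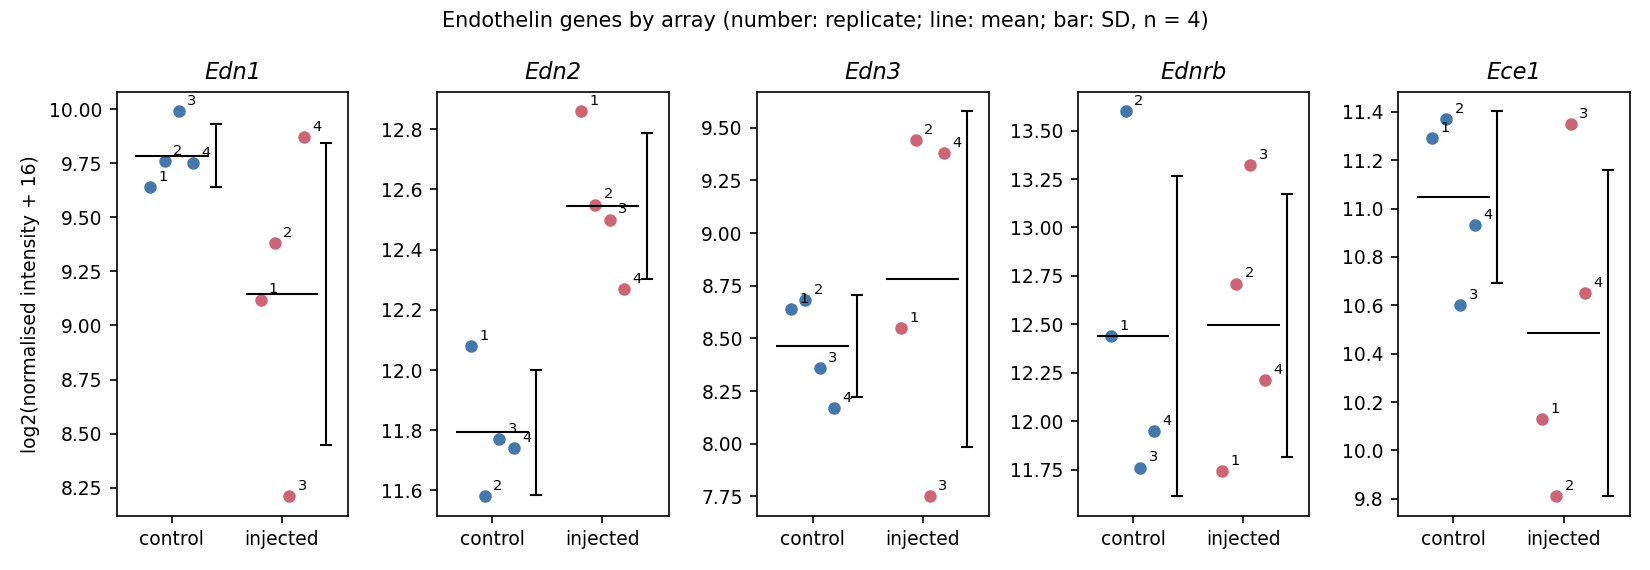
Log2(quantile-normalised intensity + 16) of Edn1, Edn2, Edn3, Ednrb and Ece1 at the tested probe set with the highest mean, for 4 control and 4 injected arrays (points, numbered by replicate; line, mean; bar, SD). Each panel has its own axis, which does not start at 0. The 4 injected values of Edn2 lie between 12.27 and 12.86, all above the controls, and the groups overlap in the other 4 panels.

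Edn1, the ligand of vascular endothelium, had lower signal on 3 of 4 injected arrays, a difference that did not pass. It read 9.64, 9.76, 9.99 and 9.75 in control replicates 1 to 4 and 9.12, 9.38, 8.21 and 9.87 in injected replicates 1 to 4. Injected replicates 1, 2 and 3 lay below all controls, and replicate 4 lay within their range. The means were 9.78 ± 0.15 and 9.14 ± 0.70 (SD, n = 4 each), a difference of -0.64 ± 0.32 (SE; 95% confidence interval -1.37 to 0.09; limma adjusted p = 0.725). The spread was larger in the injected group, where replicate 3 was lowest, and without it the difference was -0.34.

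Edn1 signal followed several marker sums and the RNA quality measure across arrays. Over the 8 arrays it had Pearson's r = 0.93 with the log2 summed intensity of the 10 Müller glia genes (rho = 0.76; 0.89 within groups; 0.83 without injected replicates 2 and 3). The relation was not particular to Müller glia. With the cone sum r was 0.89 (rho = 0.67, 0.85 within groups, 0.86 without the same 2 arrays). With the rod sum it was 0.83 (rho = 0.67, 0.75 within groups, 0.70 without them). With the 8 tested endothelial genes r was 0.84 (rho = 0.62) and was 0.09 without the same 2 arrays. The endothelial sum was 15522 in injected replicate 3 and 21290 in injected replicate 2, against 26265 to 32701 in the controls. Edn1 had r = -0.76 with the GAPDH ratio (rho = -0.57; -0.61 within groups; -0.28 without injected replicate 3 and control replicate 3). With the sum of 10 microglia and leukocyte genes r was -0.84 (rho = -0.62; -0.77 within groups; -0.55 without injected replicate 3 and control replicate 4). The part of any of these in the Edn1 difference was not tested. None of the 8 endothelial genes had an unadjusted p under 0.05 (0 of 8, where 6.68% of all genes did). With 8 genes this does not set them apart from that share. Of the 8, 6 were lower, with a median of -0.3. Kdr, the main receptor of vascular endothelial growth factor, was at -0.45 ± 0.34 (SE). Of the 10 Müller genes, 8 were lower, with a median of -0.22. Car14 was the 1 of 10 with an unadjusted p under 0.05, at -0.76 ± 0.21 (SE, limma adjusted p = 0.57). It was also the 1 of 10 whose groups did not overlap, beside 5.5% of all genes. Rlbp1, a retinoid carrier, was at -0.37 ± 0.19 and Glul, glutamine synthetase, at 0.02 ± 0.17. The endothelial markers Pecam1 and Cdh5 did not pass the filter. Arrays share RNA quality, scaling and cell content, 65 such relations between members and array measures were computed, and these were picked after their values were seen, so they are descriptions only.

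Edn3, the partner of the B receptor in neural crest, was dim on these arrays. At its tested probe set it read 8.64, 8.68, 8.36 and 8.17 in control replicates 1 to 4 and 8.55, 9.44, 7.75 and 9.38 in injected replicates 1 to 4. Injected replicates 2 and 4 lay above all controls, replicate 3 lay below them, and the control mean of 8.46 was itself just below the filter floor. The difference was 0.31 ± 0.37 (SE; 95% confidence interval -0.51 to 1.14; limma adjusted p = 0.817). It was 0.67 without injected replicate 3, 0.09 without injected replicate 2 and 0.11 without injected replicate 4. The 3 probe sets below the filter had means over all arrays from 6.66 to 7.26 and differences of 1.26, 0.09 and 0.51, with overlapping groups. The tested probe set has a name ending in x_at and 1 of the others in s_at, the marks of probes that can bind related transcripts, so the level is less certain.

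The B receptor Ednrb had strong signal that varied more within groups than between them. Its brightest probe set read 12.44, 13.60, 11.76 and 11.95 in control replicates 1 to 4 and 11.74, 12.71, 13.32 and 12.21 in injected replicates 1 to 4. The highest values were those of control replicate 2 and injected replicate 3, and the groups overlapped almost fully. The difference was 0.06 ± 0.46 (SE; 95% confidence interval -0.97 to 1.08; limma adjusted p = 0.977), an interval that leaves room for a change of about 1 log2 unit either way. Its sign depended on single arrays, with 0.45 without control replicate 2 and -0.22 without injected replicate 3, and on scaling, with -0.17 when arrays were centred on their medians.

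The 2 other Ednrb probe sets did not follow the same order of arrays. A second one read 9.81, 10.57, 9.57 and 8.72 in controls and 8.93, 9.54, 10.11 and 10.49 in injected samples, a difference of 0.10 ± 0.44 (SE). The other read 7.08, 9.32, 9.30 and 9.33 in controls and 9.43, 9.26, 10.03 and 8.32 in injected samples, a difference of 0.51 ± 0.55 (SE) that became -0.05 without control replicate 1. Over the 8 arrays the brightest probe set correlated with the second at r = 0.68 and with the other at r = 0.19, and those 2 with each other at r = -0.19. The deposited intensities of that other probe set were 116 in control replicate 1 and 369 to 1210 elsewhere.

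Ednrb signal had positive correlations with the astrocyte, pigment cell and connective tissue sums across arrays, and a negative one with the Müller glia sum. The brightest Ednrb probe set had r = 0.87 with the log2 summed intensity of the 6 tested astrocyte genes (rho = 0.88; 0.88 within groups; 0.55 without control replicate 2 and injected replicate 3). The astrocyte sum was 128289 in control replicate 2 and 130504 in injected replicate 3, against 58384 to 109769 on the other 6 arrays. Gja1, a gap junction gene that epithelia make as well, varied most among these genes, from 11.91 in control replicate 3 to 16.07 in control replicate 2. The astrocyte genes did not move as a block, since the water channel gene Aqp4 (14.35) and the glutamate transporter gene Slc1a2 (11.49) were lowest in injected replicate 3. The glial filament gene Gfap was highest on that array, at 15.78 against 13.57 to 14.55 on the others, and Gja1 read 15.49 there. Gfap was at 0.72 ± 0.40 (SE, limma adjusted p = 0.735). With the sum of 10 Müller glia genes r was -0.47 (rho = -0.33; -0.55 within groups; 0.10 without injected replicates 2 and 3). With the cornea and fibroblast sum r was 0.80 (rho = 0.79; 0.82 without control replicates 2 and 4), and with the pigment cell sum it was 0.73 (rho = 0.71; 0.60 without control replicates 1 and 2). The part of these cells in the Ednrb signal was not tested.

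Ece1, which turns big endothelins into the active peptides, had lower signal on 2 injected arrays. It read 11.29, 11.37, 10.60 and 10.93 in control replicates 1 to 4 and 10.13, 9.81, 11.35 and 10.65 in injected replicates 1 to 4. Injected replicates 1 and 2 lay below all controls and the other 2 within their range. The difference was -0.56 ± 0.34 (SE; 95% confidence interval -1.33 to 0.20; limma adjusted p = 0.744). It was -0.88 without injected replicate 3, -0.33 without injected replicate 2 and -0.83 with array weights (adjusted p = 0.43). The 2 probe sets below the filter had differences of 0.13 and 0.19, of the opposite sign, with means over all arrays of 7.87 and 7.05. Over the arrays Ece1 had r = 0.79 with the astrocyte sum (rho = 0.76, and 0.62 without control replicate 2 and injected replicate 3). With the sum of 7 pigment epithelium genes r was 0.72 (rho = 0.79, and 0.93 without control replicate 2 and injected replicate 4). Ttr alone made up 86% of that sum, so the relation is mostly with 1 gene.

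**Figure D2:**
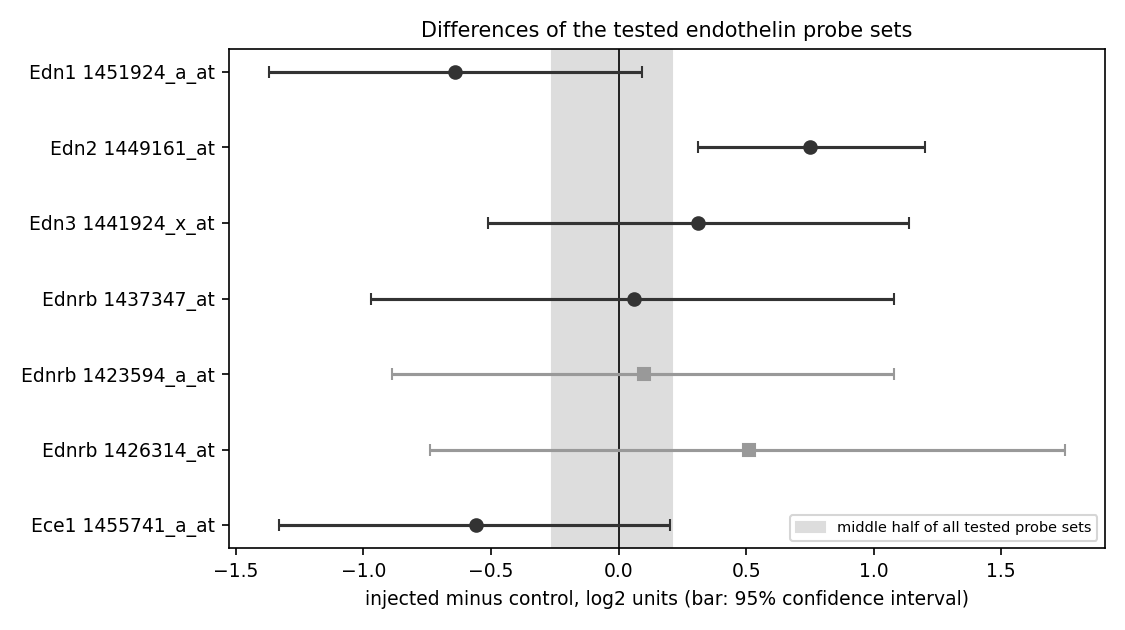
Injected minus control in log2 units for the 7 tested endothelin probe sets (circles, probe set with the highest mean of its gene; squares, other probe sets; bars, 95% confidence interval from limma). The shaded band runs from the lower to the upper quartile of all 27022 probe sets tested (-0.26 to 0.21), and the interval of Edn2, 0.31 to 1.20, is the one that does not include 0.

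Across the 5 genes, 3 differences were positive and 2 negative, with a median of 0.06 against -0.011 over all 12886 genes tested. No member passed the adjusted threshold of 0.05 (0 of 7 probe sets; background 0% of 27022 probe sets). At an unadjusted p under 0.05 there was 1 of 7 probe sets, Edn2, where the background was 6.99% (3.66% higher and 3.33% lower). Groups did not overlap at 1 of 7 probe sets, again Edn2, against 5.07% of all probe sets (2.47% higher and 2.6% lower). Which members had an unadjusted p under 0.05 depended on the arrays and the scaling. By limma's unadjusted p, without injected replicate 3 they were Edn2 (0.00481), Edn3 (0.034) and Ece1 (0.0128), and with array weights Edn2 (0.00169), Edn1 (0.049) and Ece1 (0.0115). With median centring Ece1 was among them (0.0284) and Edn2 was not (0.0797). None passed after adjustment. With 7 probe sets, a single one does not set the members apart from the background shares.

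The genes around the endothelin system were read from lists chosen with earlier results of these data known, each gene at its brightest tested probe set. No gene of the 4 lists passed the adjusted threshold (limma); 6.68% of all 12886 genes had an unadjusted p under 0.05, and in 5.5% the groups did not overlap. Of the enzymes that make or break down endothelins, 7 of 10 were tested, 3 differences were positive and 4 negative, and the median was -0.07. Mme (neprilysin), a peptidase that degrades endothelins and other peptides, was the 1 of 7 with an unadjusted p under 0.05. It read 10.12, 11.24, 9.50 and 9.97 in controls and 9.45, 9.44, 9.50 and 8.52 in injected samples, a difference of -0.98 ± 0.38 (SE; adjusted p = 0.709). The highest injected value met the lowest control, both at 9.50, and control replicate 2 stood above the rest. Without control replicate 2 the difference was -0.63 (unadjusted p = 0.0684), and without injected replicate 4 it was -0.75 (unadjusted p = 0.0843). With 1 array left out, 0 to 2 genes of the list were under 0.05, and the 2 without injected replicate 4 were Ecel1 (limma unadjusted p = 0.0107) and Furin (limma unadjusted p = 0.0399). The precursor convertase Furin was at -0.38 ± 0.21, Pcsk5, a related convertase, at -0.31 ± 0.22, and Ecel1, a relative of the converting enzyme, at 0.27 ± 0.28 (SE). Leaving out 1 array gave -0.51 to -0.24 for Furin (lowest without injected replicate 4, highest without injected replicate 1). It gave -0.45 to -0.18 for Pcsk5 (without injected replicates 3 and 4) and 0.15 to 0.57 for Ecel1 (also without injected replicates 3 and 4).

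Of 28 listed G protein subunits, phospholipases, calcium channels, protein kinases C, receptor kinases, arrestins and RGS proteins, 25 were tested, and 0 of 25 had an unadjusted p under 0.05 (0 to 1 with 1 array left out). Their differences ran from -0.63 to 0.81 with a median of -0.04. Plcb3, a phospholipase that Gq-coupled receptors activate, was at 0.81 ± 0.40 (SE) and the arrestin Arrb1, which switches receptors off, at -0.63 ± 0.34. Plcb3 was at 1.19 without control replicate 2 (limma unadjusted p = 0.00415), and Arrb1 at -0.91 without injected replicate 1 (limma unadjusted p = 0.0118). The control mean of Plcb3, 8.3, was below the filter floor of 8.5, and it passed only through its injected mean of 9.12. Its difference and p therefore rest on control values near the floor. Rgs2, which limits Gq signalling, was at -0.26 ± 0.18 and the protein kinase C gene Prkce at 0.26 ± 0.18.

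The list of the response of the retina to photoreceptor stress was picked with the values of several of its genes known, so its direction is no independent evidence. Of 17 genes 15 were tested, and 4 were higher and 1 lower at an unadjusted p under 0.05, with a median difference of 0.36 against -0.011 over all genes; with arrays centred on their medians it was 0.12. Socs3, a feedback inhibitor that STAT3 signalling turns on, read 13.60, 13.23, 13.20 and 13.41 in controls and 14.73, 14.82, 15.06 and 14.47 in injected samples, with no overlap (limma adjusted p = 0.146; adjusted p 0.0432 to 0.694 over the alternatives, the lowest without injected replicate 4). Serpina3n, an acute-phase protease inhibitor, read 10.58, 10.86, 10.71 and 10.55 against 11.60, 11.68, 12.11 and 12.12, also apart. The acute-phase protein A2m at 0.84 ± 0.26 (SE) and the NF-kappa-B cofactor Bcl3 at 1.05 ± 0.34 were the other 2 higher, each with overlapping groups, and the metallothionein Mt1 was at -0.65 ± 0.24. Lif, the cytokine through which Müller cells are known to call for endothelin 2 from photoreceptors, was dim in control replicate 3 (6.71) and ran from 8.98 to 9.50 in the other controls and from 8.11 to 9.90 in injected samples, a difference of 0.46 ± 0.64 (SE). Its receptor chains Lifr and Il6st were at 0.24 ± 0.20 and 0.15 ± 0.22.

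The summed intensity of 10 microglia and leukocyte genes was 34919 to 59268 in controls and 72214 to 171146 in injected samples, and that of 9 cone genes was 124199 to 134789 against 51174 to 116620. Ptprc, the pan-leukocyte surface phosphatase, was at 1.13 ± 0.28 and the cone opsin gene Opn1sw at -2.07 ± 0.51 (SE; limma adjusted p = 0.513 and 0.517). The sum of 9 genes of other retinal neurons was 150397 to 177694 in controls and 123238 to 144297 in injected samples. These 3 sums separate the groups as Edn2 and Socs3 do, and their part in either difference was not tested. Over the 8 arrays Edn2 had r = -0.77 with the retinal neuron sum (rho = -0.79, -0.02 within groups, -0.91 without control replicate 1 and injected replicate 2). With the cone sum r was -0.74 (rho = -0.69, -0.16 within groups, -0.86 without injected replicates 2 and 3). With the microglia sum it was 0.66 (rho = 0.74, -0.21 within groups, 0.67 without injected replicate 3 and control replicate 4). The sum of 7 rod genes ran from 204849 to 218313 in controls and from 133003 to 224972 in injected samples, with overlap.

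Other vasoactive systems gave 16 tested genes of 27, with a median difference of -0.25, which was -0.39 with median centring, -0.09 without injected replicate 4 and -0.11 without control replicate 2. Ramp1, a co-receptor for calcitonin gene-related peptide, was the 1 of 16 with an unadjusted p under 0.05, a count of 1 to 3 with 1 array left out (3 without injected replicate 1, 2 without injected replicate 3). It read 9.62, 9.36, 9.77 and 9.81 in controls and 9.07, 8.84, 9.07 and 9.15 in injected samples, with no overlap (difference -0.61 ± 0.18 SE; limma adjusted p = 0.591). The angiotensin receptor Agtr1a was at 0.51 ± 0.25, the guanylate cyclase subunit Gucy1a1 at -0.37 ± 0.25 and the natriuretic peptide gene Nppb at -0.89 ± 0.61 (SE). Without injected replicate 3, Gucy1a1 was at -0.15 and Nppb at -0.47, and without injected replicate 1 Nppb was at -0.48. The injected mean of Nppb, 8.17, was below the filter floor of 8.5, and it passed only through its control mean of 9.06. Among 7 tested pericyte and smooth muscle genes, targets of vascular endothelin, 0 of 7 had an unadjusted p under 0.05, against 6.68% of all genes. Acta2, smooth muscle actin, was at -0.44 ± 0.74 and read 14.06 in control replicate 2 against 10.03 to 11.96 elsewhere, while Pdgfrb was at -0.54 ± 0.48 and Rgs5 at 0.01 ± 0.40.

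**Figure D3:**
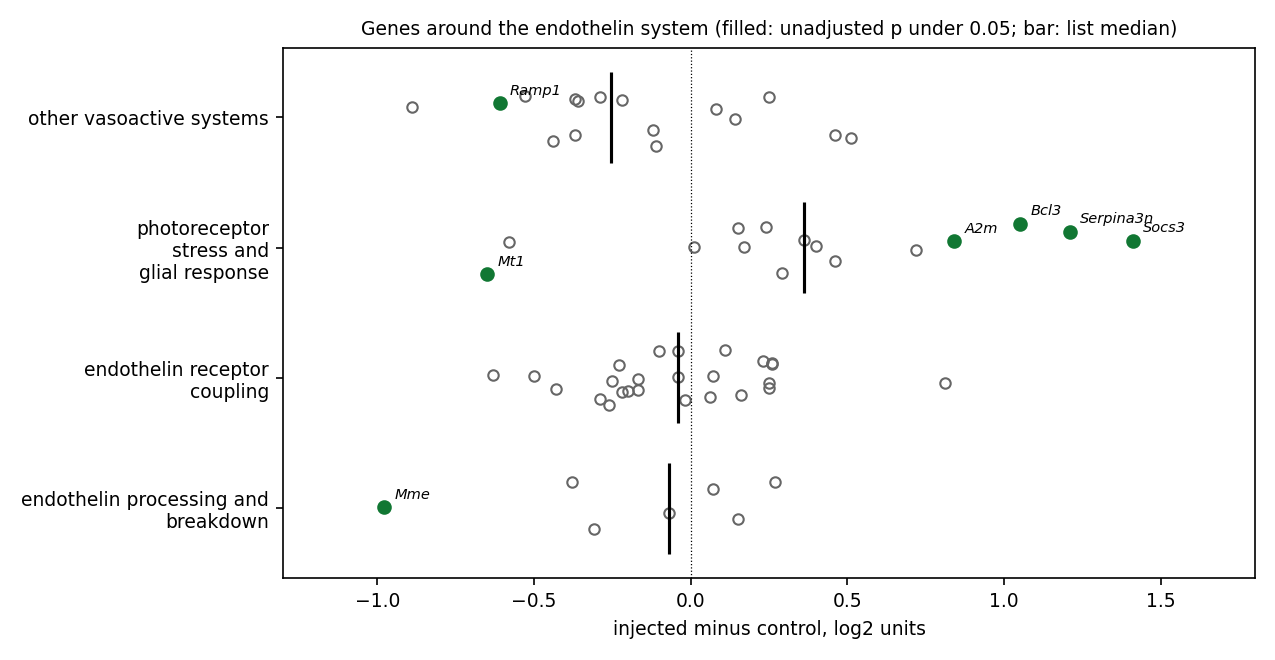
Injected minus control in log2 units for each tested gene of 4 lists around the endothelin system (points; filled and named where the unadjusted p was under 0.05, none of which passed after adjustment; vertical bar, list median). Medians are -0.07 for processing enzymes, -0.04 for receptor coupling, 0.36 for the stress list and -0.25 for other vasoactive systems.

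The genes whose pattern over the 8 arrays was most like a member were named by highest Pearson's r among 12885 other genes. All r values here share the arrays' RNA quality and cell content, and the best of so many over 8 arrays is high by selection. Edn2 was most like Plekha2 (r = 0.957), an adaptor that binds phosphoinositides, Casp8 (0.948), the initiator caspase of death receptors, the kinase Srpk3 (0.947), the matrix proteoglycan gene Agrn (0.938) and Gm4951 (0.934). Within groups these 5 had r from 0.68 to 0.86, and without injected replicate 1 and control replicate 2, the arrays farthest from the median of Edn2, from 0.90 to 0.95. Spearman's rho ran from 0.86 to 0.98. The 5 themselves differed between groups by 0.34 to 2.46 log2 units, with adjusted p from 0.318 to 0.718 (limma).

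Edn1 was most like the bicarbonate transporter Slc4a8 (r = 0.99), the selenophosphate synthetase Sephs2 (0.987), the oxysterol hydroxylase Cyp7b1 (0.987), the mitochondrial dehydrogenase subunit Ogdh (0.983) and Dbndd1 (0.981). Their lowest value was in injected replicate 3, as for Edn1, and r ran from 0.82 to 0.95 without injected replicates 3 and 1 (rho 0.86 to 1). Edn3 was most like the adhesion docking protein Bcar1 (0.96), Gm41810 (0.935), Akt1s1 (0.935), Il1f8 (0.925) and Xpo4 (0.922), with r from 0.86 to 0.93 without injected replicates 3 and 2 (rho 0.67 to 0.98). Ednrb was most like the annexin Anxa4 (0.972), Nkain1 (0.969), the alcohol dehydrogenase Adh1 (0.968), the epithelial cadherin Cdh1 (0.936) and the galectin Lgals1 (0.935), with r from 0.72 to 0.93 without control replicate 2 and injected replicate 3 (rho 0.79 to 0.98). Ece1 was most like the potassium channel Kcnh2 (0.95), Sox15 (0.949), Prxl2b (0.948), Cnpy2 (0.946) and the collagen chain Col8a2 (0.925), with r from 0.88 to 0.98 without injected replicates 2 and 1 (rho 0.90 to 0.98).

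Members differed in how they went together. Over the 8 arrays Edn1 and Edn2 had r = -0.64 (-0.30 within groups), Edn2 and Edn3 0.17, and Edn1 and Edn3 0.48 (0.85 within groups). The ligand Edn2 and the brightest Ednrb probe set had r = -0.14, Edn2 and Ece1 -0.56 (-0.24 within groups), and Ednrb and Ece1 0.51 (0.63 within groups).

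**Figure D4:**
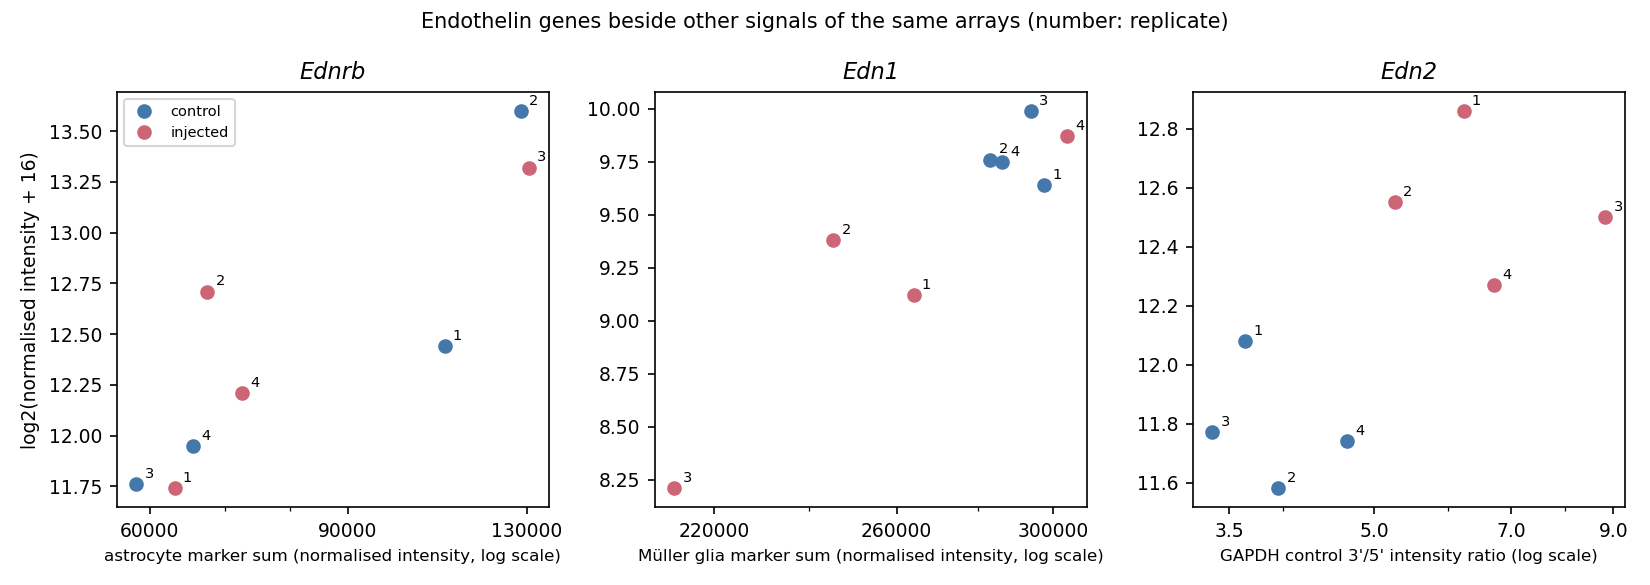
Left, Ednrb against the summed normalised intensity of 6 astrocyte genes; middle, Edn1 against that of 10 Müller glia genes; right, Edn2 against the 3' to 5' ratio of the GAPDH control probe sets. Points are arrays numbered by replicate, the x axes are on a log scale and the y axes are log2(quantile-normalised intensity + 16). Control replicate 2 and injected replicate 3 are highest for Ednrb, injected replicate 3 is lowest for Edn1, and the injected arrays are higher on both axes for Edn2.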

How the data were processed

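The authors deposited a linear intensity for every probe set of each of 8 arrays. The mean with 2% trimmed from both tails equals 2500 on each of them, which fits a global scaling. The software is not given in the sources used here. The ratio of highest to lowest array median was 1.55. After the 64 array control probe sets were set aside, intensities were quantile-normalised (limma 3.58.1 under R 4.3.3). The scale of all tests is log2(intensity + 16), which understates changes of dim genes. Probe sets at or above the 40th percentile of mean log2 value were tested by limma (lmFit and eBayes; prior df 3.3), and p-values were adjusted by Benjamini-Hochberg over all 27022 with a threshold of 0.05. A gene was read at its brightest tested probe set. The number of arrays limits the precision.

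Members and lists were chosen with earlier results of these data known. Named are all members, the 4 genes with the lowest p in every list around the endothelin system, the 5 genes most like each member and a fixed set of markers. Further list genes, such as Mt1, Lif, Lifr, Il6st, Gja1 and Car14, were named after their values were seen. Of the 6 erythrocyte genes listed, 3 were on the array and 0 passed the filter. The fit was tested on simulated data. Alternatives were pseudocounts of 1 and 64, no filter, deposited scaling, median centring, a trended robust prior, array weights (statmod 1.5.0), a replicate block, an unmoderated test and each array left out; a fit without both control replicate 2 and injected replicate 3 was added after the data were seen. Figures were drawn with matplotlib 3.10.9 (Python 3.11.15).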

Additional observations from a re-analysis of the deposited data

Results flagged for a closer look

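Of 28 groups of 4 arrays checked for a sample far from the others (12 probe sets and 2 control ratios in each group), 1 was noted, where chance gives about 1 in 20. It was the dimmest of the 3 Ednrb probe sets in control replicate 1, at 7.08 against 9.30 for the nearest control.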

How the results depend on the processing

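Over 18 alternatives each, Edn2 stayed positive (0.53 to 0.85; adjusted p 0.26 to 0.889), Edn3 positive (0.09 to 0.74), Edn1 negative (-0.89 to -0.34) and Ece1 negative (-0.88 to -0.33), and none passed the adjusted threshold. The brightest Ednrb probe set turned negative with median centring (-0.17), with array weights (-0.07) and when any of 4 of the 8 arrays was left out (range -0.22 to 0.45). The second Ednrb probe set was at -0.05 with array weights and from -0.22 to 0.40 with 1 array left out, and the dimmest from -0.05 to 0.83. Over all probe sets, 7 were higher and 1 lower with array weights, and with 1 array left out 0 to 29 were higher and 0 to 5 lower, the highest counts both without injected replicate 4. Leaving out 1 array gave 1325 to 2436 probe sets with an unadjusted p under 0.05, and 1975 to 2992 with groups apart, where smaller groups separate more easily; without control replicate 2 and injected replicate 3 together it was 3115. With median centring the list medians were -0.21 for receptor coupling, 0.12 for the stress list and -0.39 for other vasoactive systems; the last was -0.15 without those 2 arrays. Leaving out 1 array gave list medians of -0.24 to 0.05 (processing), -0.14 to 0.01 (coupling), 0.24 to 0.43 (stress) and -0.27 to -0.09 (vasoactive). Where no construction is given, the cause was not tested. Same-numbered arrays did not deviate together (correlations 0.08, 0.01, -0.03 and 0.04, beside -0.13 to 0.12 for the other pairs). With 4 arrays a group, these values cannot settle whether the numbers pair samples. With the number as a replicate block Edn2 was at 0.75 (limma adjusted p = 0.728), 0 probe sets passed and no call of a member changed. Dim probe sets of Edn3 and Ece1 limit what these arrays show of either gene.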
